A study of Homo sapiens with 4 samples.

Results

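Glycolytic isoenzymes and genes of the hypoxia-inducible factor (HIF) pathway were followed in LoVo cells with and without the MET receptor. The set was a list of 41 gene symbols, 20 glycolytic isoenzymes and their regulators and 21 HIF subunits, HIF regulators and hypoxia-inducible genes, among 58825 gene rows counted in each library. The members were given as gene names and not by a threshold on a measured value, with earlier results of these data known. LoVo is a human colon adenocarcinoma line whose MET receptor stays uncleaved and is phosphorylated without its ligand. The 4 libraries were 2 biological replicates of MET+ cells (GFP control, genotype WT) and 2 of MET-KO cells, made with CRISPR/Cas9, puromycin selection and the picking of single clones. All were grown in DMEM with fetal bovine serum, with no drug or change of oxygen in the labels. Whether the MET-KO libraries came from the same clone is not given in the sources used here, so the p-values describe the spread between these libraries only.

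Glycolysis cuts glucose into pyruvate in the cytosol, and most of its steps can be run by several isoenzymes that are coded by separate genes and differ in regulation and tissue. HIF is a pair of a labile alpha subunit and a stable beta subunit that binds a short core sequence near its target genes. In the presence of oxygen the EGLN prolyl hydroxylases mark the alpha subunit for VHL-dependent degradation, and in hypoxia HIF raises many glycolytic genes together with genes of angiogenesis, pH control and mitophagy. HIF is controlled largely at the protein level, which RNA counts do not measure. PKM and LDHA are much studied in colorectal and other carcinomas, where glucose is turned to lactate in the presence of oxygen.

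The libraries held 8429142 to 10286552 counts on 17849 to 19722 detected genes. Replicates correlated at r = 0.985 (MET+) and 0.99 (MET-KO) in log2 CPM across genes, and libraries of different groups at 0.827 to 0.832. MET (ENSG00000105976), the targeted gene, had 337 and 335 CPM (the count scaled to library size) in MET+ and 84.3 and 88.7 CPM in MET-KO libraries, which left 25.7% of the MET+ level as RNA. Both groups carried the main epithelial keratins. The summed CPM of 12 colorectal epithelium markers ran from 7324 to 9745, most of it from KRT18 (4623 to 6170 CPM), so the sum says little about the other markers. The groups also differed apart from MET. CDH17 and CEACAM5 were at 0 counts in both MET-KO libraries, and CDX1 was at 0 in all 4. LGALS4 had 89 and 107 counts in MET+ against 1 and 1 in MET-KO libraries, and VIL1 43 and 58 against 3 and 3. EPCAM and CDH1 were at 46.4% and 54.4% of the MET+ level, KRT18 and KRT19 were called lower at -0.30 and -0.29, and KRT8 did not pass the test. Without single libraries KRT18 ranged from -0.38 to -0.23 and KRT19 from -0.41 to -0.17. After the median of chromosome 12 was subtracted KRT18 was at 0.01. In the other direction, KRT20 had 0 counts in both MET+ libraries against 27 and 28 in the MET-KO libraries, and CDX2 was 2.06-fold higher in MET-KO cells. Of the listed genes of the Y chromosome, 8 of 9 had counts in both MET-KO libraries but 0 of 9 in either MET+ library. The markers of fibroblasts summed to at most 47 counts, those of leukocytes to at most 97 and those of endothelium to at most 9 in any library. Whole chromosomes were shifted as well, with median log2 fold changes of -0.51 for chromosome 14, -0.43 for chromosomes 5 and 15, -0.32 for chromosome 12, 0.30 for chromosome 21 and 0.50 for chromosome 7. An effect of MET and any other difference between the cells of the groups cannot be told apart in this design.

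The core sequence that HIF binds, searched as ACGTG or GCGTG on either strand (CACGT and CACGC on the strand shown), is printed for 4 of the hypoxia-inducible members with large differences in RNA between the groups. The sequences come from RefSeq on GRCh38.p14, and 37 of the 41 members had an entry there. ACGTG and CACGT overlap in the palindrome CACGTG, and capitals mark the matches. For CITED2 the 250 bases before the start are given (chr6:139374649-139374898, minus strand). For KDM3A (chr2:86441333-86441362), BHLHE40 (chr3:4979187-4979216) and ADM (chr11:10304960-10304989), all on the plus strand, 30 bases with the match farthest upstream of a start are given.
CITED2: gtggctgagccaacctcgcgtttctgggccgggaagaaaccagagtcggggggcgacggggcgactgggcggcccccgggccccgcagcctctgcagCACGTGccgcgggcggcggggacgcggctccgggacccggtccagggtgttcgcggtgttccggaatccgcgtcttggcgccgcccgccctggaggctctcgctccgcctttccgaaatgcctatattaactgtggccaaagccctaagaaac
KDM3A: ccgggaggctgtGCGTGtcttgtgagagct
BHLHE40: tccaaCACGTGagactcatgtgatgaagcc
ADM: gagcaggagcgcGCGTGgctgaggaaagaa

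Of these 4 genes, CITED2 and ADM were higher and KDM3A and BHLHE40 lower in MET-KO cells, so genes of either direction had a match before a RefSeq start. The printed matches of KDM3A, BHLHE40 and ADM lie inside exons of GENCODE transcripts that start farther upstream, and that of CITED2 lies outside the annotated gene. The 250 bases before a start held at least 1 match at 15172 of 35116 starts of all genes (43.2%), at 18 of 23 starts of the hypoxia members (78.3%) and at 23 of 42 starts of the glycolysis members (54.8%). By gene, 14 of 17 hypoxia members and 17 of 20 glycolysis members had at least 1 such start. A count by gene rises with the number of starts, and no share by gene was formed for all genes. EGLN3, ARNT, P4HA2, PKM, LDHB and PGAM1 had no match in the window. VEGFA, HILPDA, BNIP3L and NDRG1 had no entry in the sequence table. A match of these letters is a description of the sequence and not a measured binding site.

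In MET-KO cells the glycolytic genes did not move as a block. PKM, TPI1, ENO2, ENO1, PFKP, PDHA1 and the brain-type aldolase ALDOC fell, PFKM and PFKL rose, and GPI, LDHA, LDHB and both hexokinases did not pass the test. Of the 20 glycolysis members 19 could be tested, and 2 rose, 7 fell and 10 did not pass (47.4% called). Among all 13801 genes tested, 7467 passed in either direction (54.1%), with 3755 higher (27.2%) and 3712 lower (26.9%), so the share called in this list was near that of all genes. In a bulk library fewer cells with a transcript and fewer copies per cell cannot be told apart. Scaling by library totals in place of TMM factors gave 3 members higher and 4 lower. The median log2 fold change of the list was -0.13 beside 0.01 over all genes tested. CPM did not overlap between the groups in 15 of 19 members, beside 75.6% of all genes tested. The tested difference is the log2 fold change of MET-KO over MET+ from edgeR's quasi-likelihood test, with its standard error (SE) and the p-value adjusted over all genes by Benjamini-Hochberg at a threshold of 0.05.

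The members of the upper, glucose-trapping part of the pathway did not pass the test. HK1 and HK2, hexokinases that phosphorylate glucose on entry, had log2 fold changes of 0.22 and 0.00. HKDC1, a lower hexokinase-like gene outside the list, is given with the other genes of the pathway. GPI (ENSG00000105220, chr19:34359480-34402413), which isomerizes glucose 6-phosphate, had 349 and 356 CPM in MET+ and 358 and 341 CPM in MET-KO libraries. The groups overlapped, with a log2 fold change of -0.01 (SE 0.09, adjusted p = 0.923).

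Phosphofructokinase, the committed step, changed in its mix of subunits and not in its sum. PFKP, the platelet-type subunit, fell (log2 fold change -0.32) and PFKM, the muscle-type subunit, rose (0.78). PFKL, the liver-type subunit, was called higher at 0.29 (adjusted p = 0.0431). The call on PFKL was lost without MET+ replicate 2 (0.24, adjusted p = 0.178) or MET-KO replicate 1 (0.08, adjusted p = 0.703), and by DESeq2 (adjusted p = 0.157). Its value was also close to the median of chromosome 21, on which it lies, and the part of that shift in the result was not tested. The call on PFKP was lost without MET+ replicate 2 (-0.29, adjusted p = 0.0583) and with library totals (adjusted p = 0.0524). PFKM overlaps the antisense gene SENP1, which had 848 counts against 1475 for PFKM over the 4 libraries. The strand setting of the counting is not given in the sources used here.

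The summed level of the 3 subunits was 214 and 218 CPM in MET+ and 229 and 204 CPM in MET-KO libraries, so the groups overlapped. Within that sum PFKP made up 65.4% and 67.5% in MET+ (exact 95% intervals 63.1 to 67.6% and 65.4 to 69.5%) and 50.3% and 55.9% in MET-KO libraries (48.2 to 52.3% and 53.8 to 58.0%). PFKM made up 12.8% and 12.5% in MET+ and 22.3% and 20.7% in MET-KO libraries. The intervals cover counting error only. The library protocol makes about 1 fragment near the 3′ end of a transcript, so CPM were not divided by gene length, and a share compares fragment counts between genes. With 2 libraries a group, an exact permutation test of such a share cannot give a p-value below 0.33, so the shares are given without a test. PFKFB3 and PFKFB4, which set the level of the activator of phosphofructokinase, had log2 fold changes of 0.18 and -0.50 and did not pass the test. PFKFB2, of the same family but not a member, was called higher, from 42.0 and 43.55 CPM to 69.2 and 70.1 CPM (log2 fold change 0.70, adjusted p = 1.65e-06).

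Aldolase, which splits the six-carbon sugar, was represented by ALDOC alone (ENSG00000109107, chr17:28573115-28577264). ALDOC had 255 and 287 counts in the MET+ libraries against 9 and 5 in the MET-KO libraries, or 30.8 and 29.4 CPM against 0.88 and 0.46 CPM. The groups were far apart, 44.9-fold by their mean CPM, with a log2 fold change of -5.47 (SE 0.28, adjusted p = 5.92e-18). This was the lowest value among the members, and ALDOC was one of 3 glycolysis members called with a difference of 1 or more on the log2 scale, as were 24.3% of all genes tested. ALDOA, the general aldolase, was listed at 0 counts in all 4 libraries, so a sum or share of aldolases was not formed. It shares 75.2% of its last 500 exon bases with another annotated gene on the same strand, AC093512.2, which was also at 0.

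TPI1 (ENSG00000111669, chr12:6867119-6870948), which interconverts the triose phosphates, had 594 and 623 CPM in MET+ and 368 and 352 CPM in MET-KO libraries. All MET-KO values lay below the MET+ values, with a log2 fold change of -0.76 (SE 0.09, adjusted p = 9.36e-09). GAPDH (ENSG00000111640, chr12:6533927-6538374), the next enzyme and a loading reference of many assays, was not a member but lies near TPI1 and had a like difference. It went from 5178 and 5546 CPM to 3217 and 3006 CPM, a log2 fold change of -0.79 (SE 0.10, adjusted p = 4.67e-08). The genes within 5 Mb of TPI1 had a median of -0.51, below that of chromosome 12 as a whole, and its part in these values was not tested. PGAM1, the phosphoglycerate mutase, had a log2 fold change of 0.21 and did not pass. It has 13 annotated processed pseudogenes with 70 counts beside its own 521, so that its count is uncertain.

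Enolase makes phosphoenolpyruvate, and both enolase members, ENO1 and ENO2, fell. The muscle-type ENO3, which is not a member and had 30 to 83 counts a library, was called higher (log2 fold change 0.81, adjusted p = 0.0219). By DESeq2 ENO3 did not pass (adjusted p = 0.101), and its value ranged from 0.51 to 1.07 without single libraries. ENO1 (ENSG00000074800, chr1:8861000-8879250), the general form, had 1240 and 1172 CPM in MET+ and 1014 and 997 CPM in MET-KO libraries. The groups did not overlap, but the difference was small, with a log2 fold change of -0.26 (SE 0.09, adjusted p = 0.0164). The call on ENO1 was lost without MET+ replicate 1 (-0.22, adjusted p = 0.184) or MET+ replicate 2 (-0.31, adjusted p = 0.0686), and with library totals (adjusted p = 0.0843). ENO2 (ENSG00000111674, chr12:6913745-6923698), the neuron-type form, had 61.6 and 82.2 CPM in MET+ and 29.2 and 27.6 CPM in MET-KO libraries. Its log2 fold change was -1.35 (SE 0.13, adjusted p = 6.16e-11), and its share of the ENO1 and ENO2 fragments went from 4.74% and 6.55% to 2.80% and 2.69%. ENO2 lies next to TPI1 in the same region of chromosome 12.

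PKM (ENSG00000067225, chr15:72199029-72231822), the pyruvate kinase that forms ATP in the last step, was the highest member in fragment counts in every library and carried the largest drop in CPM. It had 4040 and 4415 CPM in MET+ and 1912 and 1870 CPM in MET-KO libraries. The MET-KO level was 44.7% of that in MET+, with a log2 fold change of -1.16 (SE 0.10, adjusted p = 6.04e-12). After the median of chromosome 15 was subtracted the difference was -0.73. A gene count does not tell the M1 and M2 splice forms of PKM apart. The summed glycolysis members went from 8320 and 8755 CPM in MET+ to 5677 and 5415 CPM in MET-KO libraries, 65.0% of the MET+ level. Without PKM the sums were 4280 and 4340 CPM against 3765 and 3545 CPM, or 84.8%, so PKM made up most of the drop in the sum.

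Lactate dehydrogenase did not show a called difference in either subunit. LDHA (ENSG00000134333, chr11:18394388-18408425), the muscle-type subunit and a HIF target, had 517.5 and 607.6 CPM in MET+ and 535.5 and 531.2 CPM in MET-KO libraries. The MET-KO values lay between the MET+ values, with a log2 fold change of -0.08 (SE 0.09, adjusted p = 0.508). LDHB (ENSG00000111716, chr12:21635342-21757857), the heart-type subunit, had 910.0 and 910.3 CPM in MET+ and 889.8 and 768.5 CPM in MET-KO libraries. Its log2 fold change was -0.13 (SE 0.09, adjusted p = 0.234), which passed without MET-KO replicate 1 (-0.25, adjusted p = 0.0185). LDHA made up 36.3% and 40.0% of the pair in MET+ and 37.6% and 40.9% in MET-KO libraries, with overlap of the groups. LDHB shares 46% of its last 500 exon bases with an annotated gene on the same strand.

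Pyruvate enters the mitochondrion through pyruvate dehydrogenase, whose kinases PDK1 and PDK3 switch it off. PDHA1, its catalytic alpha subunit, fell with a log2 fold change of -0.31, a call that was lost without MET+ replicate 1 (-0.26, adjusted p = 0.0898) and with library totals (adjusted p = 0.0674). PDK1, a HIF target, and PDK3 had log2 fold changes of 0.04 and -0.31 and did not pass. PDK3 passed without MET+ replicate 1 (-0.39, adjusted p = 0.0473), and PFKFB4 without MET+ replicate 2 (-0.64, adjusted p = 0.0462).

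The HIF subunits changed by less than 1 on the log2 scale. HIF1A (ENSG00000100644, chr14:61695513-61748259), the oxygen-labile alpha subunit, had 55.9 and 40.6 CPM in MET+ and 35.2 and 41.7 CPM in MET-KO libraries. The groups overlapped, and the log2 fold change of -0.32 (SE 0.13, adjusted p = 0.0427) was lost without MET+ replicate 1 (-0.07, adjusted p = 0.717) or MET-KO replicate 1 (-0.21, adjusted p = 0.273). It was also lost by DESeq2 (adjusted p = 0.161) and with library totals (adjusted p = 0.178), and turned to 0.20 once the median of chromosome 14 was subtracted. EPAS1 (ENSG00000116016, chr2:46293667-46386703), which codes HIF-2 alpha, had 37.4 and 32.1 CPM in MET+ and 23 and 19.5 CPM in MET-KO libraries. All MET-KO values were lower, with a log2 fold change of -0.71 (SE 0.14, adjusted p = 8.22e-05). ARNT (ENSG00000143437, chr1:150809705-150876768), the beta subunit that both alpha subunits need to bind DNA, had 13.8 and 15 CPM in MET+ and 21.4 and 21.1 CPM in MET-KO libraries. ARNT was higher, with a log2 fold change of 0.57 (SE 0.17, adjusted p = 0.00431).

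EGLN1 and EGLN3, prolyl hydroxylases that inactivate HIF and are themselves hypoxia-inducible, were both higher. EGLN1 (ENSG00000135766, chr1:231363751-231425044), the main oxygen sensor of the family, had 37.8 and 41.7 CPM in MET+ and 58.2 and 51.9 CPM in MET-KO libraries. Its log2 fold change was 0.47 (SE 0.12, adjusted p = 0.000986). EGLN3 (ENSG00000129521, chr14:33924231-34462774) had 18 and 22 counts in the MET+ libraries against 102 and 126 in the MET-KO libraries, or 2.17 and 2.25 CPM against 9.98 and 11.6 CPM. EGLN3 rose with a log2 fold change of 2.28 (SE 0.29, adjusted p = 3.75e-08), on a chromosome whose median was -0.51. Its share of the pair went from 5.44% and 5.13% to 14.6% and 18.2%, with exact 95% intervals of at most 8.46% in MET+ and at least 12.1% in MET-KO libraries. CITED2 (ENSG00000164442, chr6:139371807-139374620), a HIF target whose protein competes with HIF for its coactivators, had 28 and 18 counts in the MET+ libraries against 774 and 840 in the MET-KO libraries. This gave 3.38 and 1.84 CPM against 75.8 and 77.2 CPM, the highest log2 fold change among the members (4.90, SE 0.18, adjusted p = 9.83e-22).

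Hypoxia-inducible genes moved in both directions. Of the 20 tested members of the hypoxia list 7 were called with a difference of 1 or more on the log2 scale, beside 24.3% of all genes tested. Of the 21 members of the hypoxia list, subunits and regulators included, 20 could be tested, and 8 rose, 5 fell and 7 did not pass (65% called beside 54.1% of all genes tested). Their median log2 fold change was 0.18, and CPM did not overlap between the groups in 16 of 20 (80%, beside 75.6% of all genes tested). ADM and BNIP3L rose with CITED2 and EGLN3, while VEGFA, BHLHE40 and KDM3A fell. CA9, a tumour carbonic anhydrase that is among the most used markers of HIF-1 activity, was listed at 0 counts in all 4 libraries. At these depths 0 counts allow up to 0.276 to 0.362 CPM. The exons of CA9 overlap the antisense gene ARHGEF39 (372 counts), and the part of that overlap in the 0 was not tested.

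Among the secreted factors, ADM and VEGFA went opposite ways. ADM (ENSG00000148926, chr11:10304680-10307397), the precursor of the vasodilator adrenomedullin, had 10.1 and 6.97 CPM in MET+ and 79.9 and 77.5 CPM in MET-KO libraries. It was 9.2-fold higher by mean CPM, with a log2 fold change of 3.22 (SE 0.15, adjusted p = 3.83e-19). VEGFA (ENSG00000112715, chr6:43770184-43786487), the main angiogenic factor of hypoxic tissue, had 80.6 and 74.7 CPM in MET+ and 21.8 and 23.6 CPM in MET-KO libraries. It was 3.42-fold lower, with a log2 fold change of -1.77 (SE 0.12, adjusted p = 1.14e-14). ANGPTL4, a lipase inhibitor, had only 29 to 43 counts a library and a log2 fold change of 0.07 that did not pass. It overlaps the antisense gene RAB11B-AS1, which had 294 counts against 136 for ANGPTL4 over the 4 libraries.

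Among the mitophagy receptors and stress proteins, BNIP3L (ENSG00000104765, chr8:26382898-26505636) had 26.8 and 33.0 CPM in MET+ and 78.5 and 83.2 CPM in MET-KO libraries. It rose with a log2 fold change of 1.43 (SE 0.12, adjusted p = 2.56e-12). Its paralog BNIP3 had a log2 fold change of 0.14 and did not pass. BNIP3L thus took 51.9% and 57.1% of the counts of the pair in MET+ and 73.0% and 76.4% in MET-KO libraries. BNIP3 has 39 annotated processed pseudogenes with 3 counts beside its own 1024, and their part in the shares was not tested. BNIP3L overlaps the antisense gene PNMA2, which had 620 counts against 2251 for BNIP3L. HILPDA, a lipid droplet protein, rose with a log2 fold change of 0.75, of which 0.25 was left after the median of chromosome 7 was subtracted. NDRG1, a stress response gene, had a log2 fold change of 0.25 and ANKRD37 one of -0.25, neither past the test. ANKRD37 overlaps the antisense gene UFSP2, which had 956 counts against 297 for ANKRD37.

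Among the remaining members, BHLHE40, KDM3A and MXI1 code transcriptional and chromatin regulators, and the first 2 of them fell. BHLHE40 (ENSG00000134107, chr3:4979116-4985323), a repressor of the circadian clock and of lipogenic genes, had 26.5 and 25.8 CPM in MET+ and 6.36 and 6.44 CPM in MET-KO libraries. Its log2 fold change was -2.03 (SE 0.18, adjusted p = 2.27e-11). KDM3A (ENSG00000115548, chr2:86440647-86492716), a histone H3 lysine 9 demethylase, had 20.6 and 23.1 CPM in MET+ and 7.145 and 8 CPM in MET-KO libraries. The log2 fold change of KDM3A was -1.53 (SE 0.19, adjusted p = 1.87e-08). MXI1, an antagonist of MYC, had a log2 fold change of 0.22 and did not pass.

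Collagen prolyl hydroxylase, which matures collagen in the endoplasmic reticulum, changed in one of its alpha subunits. P4HA2 rose with a log2 fold change of 0.89 on chromosome 5, whose median was -0.43, and P4HA1 had 0.10 and did not pass. P4HA2 made up 53.3% and 45.1% of the pair in MET+ and 63.4% and 61.6% in MET-KO libraries. CA12, a membrane carbonic anhydrase, had a log2 fold change of 0.11 that did not pass.

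The remaining genes of the pathway came from longer lists. Of 45 other genes of glycolysis, glucose transport and pyruvate metabolism 31 could be tested, and 11 rose, 11 fell and 9 did not pass (71% called beside 54.1% of all genes tested), with a median log2 fold change of 0.02. The glucose transporter SLC2A3 had 2 and 4 counts in the MET+ libraries against 161 and 160 in the MET-KO libraries, a ratio of 45.8 with an exact 95% interval of 20.8 to 126 for counting error only. LDHD, the D-lactate dehydrogenase of mitochondria, and PDP1, a phosphatase that switches pyruvate dehydrogenase on, rose by 2.39 and 2.30 on the log2 scale. LDHD rested on 2 and 6 counts in MET+ cells, and its value ranged from 1.93 without MET+ replicate 1 to 3.22 without MET+ replicate 2. In the opposite direction the gluconeogenic genes PCK1 and FBP1 and the hexokinase-like HKDC1 fell. PCK1 had 80 and 77 counts in the MET+ libraries against 0 in both MET-KO libraries, and HKDC1 40 and 66 counts against 0 and 0. Set against 3 counts a library, PCK1 was at least 30.8-fold and HKDC1 at least 20.4-fold lower. FBP1 had a log2 fold change of -3.12.

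SLC2A1, the basal glucose transporter and a HIF target, had a log2 fold change of -0.22 (adjusted p = 0.0972). PGK1, the phosphoglycerate kinase and another HIF target, had -0.02, and the lactate transporter SLC16A1 -0.01, neither past the test. The hypoxia-inducible lactate exporter SLC16A3 fell by 0.47 on the log2 scale, a call that was lost without MET+ replicate 2 (-0.33, adjusted p = 0.12), without MET-KO replicate 2 (-0.35, adjusted p = 0.125) and by DESeq2 (adjusted p = 0.0589). Chosen after their values were seen, the mitochondrial pyruvate carrier genes MPC1 and MPC2 fell by 2.13 and 1.07 on the log2 scale. The 17 genes within 5 Mb of MPC1 had a median of -1.03, and MPC1 was at -1.10 after its subtraction. The part of that shift in the result was not tested. DLAT, a subunit of pyruvate dehydrogenase, fell by 1.77. PCK2, the mitochondrial counterpart of PCK1, had a log2 fold change of -2.07, or -1.55 after the median of chromosome 14 was subtracted. Other subunits of the pyruvate dehydrogenase complex were called higher, PDHX at 0.90 and DLD at 0.54, and PDHB had 0.18 and did not pass. DLD lies on chromosome 7, and 0.03 of its value was left after the median of that chromosome was subtracted.

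Of 17 other regulators of HIF 14 could be tested, and 3 rose, 4 fell and 7 did not pass (50% called, near the 54.1% of all genes tested), with a median log2 fold change of -0.10. With library totals the counts were 3 higher and 2 lower. ARNT2, a paralog of ARNT, fell by 2.33 on the log2 scale, from 14.1 and 12.2 CPM to 2.45 and 2.76 CPM. SIAH2, a ubiquitin ligase that acts on EGLN proteins, fell by 0.84, and CITED4 had -0.43. The members of this list called higher, RBX1 of the VHL ligase and the chaperones HSP90AA1 and HSP90AB1, lay between 0.22 and 0.33. Without MET+ replicate 2 none of these 3 passed (adjusted p = 0.0771, 0.134 and 0.278), nor did CITED4 (-0.33, adjusted p = 0.115), and without MET+ replicate 1 only RBX1 passed. VHL itself had a log2 fold change of -0.19 and HIF1AN, the asparagine hydroxylase of HIF, -0.21, neither past the test, though HIF1AN passed without MET-KO replicate 1 (-0.39, adjusted p = 0.0347). EGLN2 was listed at 0 counts in all 4 libraries.

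Of 44 other hypoxia-inducible genes 34 could be tested, and 15 rose, 11 fell and 8 did not pass (76.5% called beside 54.1% of all genes tested). Their median log2 fold change was 0.06. IGFBP3, which binds insulin-like growth factors, had 3 and 0 counts in the MET+ libraries against 379 and 399 in the MET-KO libraries, a ratio of 222 with an exact 95% interval of 75.7 to 1078 for counting error only. Its fitted log2 fold change of 7.69 was 6.61 without MET+ replicate 2, and without MET+ replicate 1 the MET+ level of IGFBP3 was 0 counts, which made the fitted value 11.57. EDN1 rested on 11 and 6 counts in MET+ cells, and its value ranged from 1.79 without MET+ replicate 2 to 2.89 without MET+ replicate 1. EDN1, the precursor of endothelin, and FOSL2, an AP-1 subunit, rose by 2.27 and 1.53 on the log2 scale. NRN1, a neurite growth factor, fell by 5.19, the chemokine receptor CXCR4 by 2.58 and DDIT4, an inhibitor of mTORC1, by 1.88.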

How the data were processed

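RNA of LoVo MET+ and MET-KO cells (2 libraries each) was sequenced from the 3′ end with the QuantSeq kit. The deposited files hold raw counts of reads per gene, made by the authors on GRCh38. Per the labels, the submitters' processing notes name cutadapt 1.16, STAR 2.5.4a, featureCounts 1.6.2 and DESeq2 1.18.1. The annotation release and strand setting are not given in the sources used here. The 99 spike-in rows (0 counts) were left out. Names and positions came from GENCODE release 29, in which 58552 of 58825 gene IDs were found. The IDs that were not found held at most 0.00396% of a library.

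Counts were tested in R 4.3.3 with edgeR 4.0.16 (filterByExpr, TMM, quasi-likelihood test, Benjamini-Hochberg over 13801 genes, threshold 0.05), with the condition as the only term. CPM used TMM-scaled library sizes. In simulated counts for this comparison (13583 genes), edgeR called 91 of 100 genes changed by 2 and 84 of 100 changed by 1 on the log2 scale, with 5 false calls. The simulation changed only 200 genes and gave every gene the same dispersion. In the data 54.1% of genes were called, so these rates do not carry over to them. Alternatives were DESeq2 1.42.0, its size factors, library totals, other count filters, a replicate block, leaving out each library, and subtraction of chromosome medians. Subtraction of the median of genes within 5 Mb was chosen after seeing the data. Shares have exact binomial 95% intervals from scipy 1.17.1, and figures were drawn with matplotlib 3.10.9.

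The members and lists were chosen with earlier results of these data known. Named in full are members called with a difference of 1 or more on the log2 scale, members with a mean of at least 300 CPM, and HIF1A, EPAS1, ARNT, EGLN1, EGLN3 and CITED2. From each other list the 3 highest and 3 lowest called genes and 9 preset genes are named. ENO3, PFKFB2, PDHX, DLD, PDHB, DLAT, MPC1, MPC2 and PCK2 were named after their values were seen.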

Additional observations from a re-analysis of the deposited data

How the results depend on the processing

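A tally of the alternatives that carry a test covered 68 of the named genes, ENO3 not among them. Of its 673 values, 616 kept their direction and their side of the threshold. Of the rest, 30 lost the call, 7 gained it and 20 changed sign, of which 0 belonged to a called gene. Subtraction of medians is not part of this tally and is given below. The members of the glycolysis list called higher numbered 1, not 2, by DESeq2, with no filter on low counts and with the replicate block, since PFKL was lost (with the block at 0.28, adjusted p = 0.0657), and 1 to 2 without single libraries. The members called lower numbered 4 with library totals, which move the median of all genes by 0.101 and under which HK1, NDRG1 and MXI1 also passed, all higher (0.316, 0.345 and 0.326). The other HIF regulators called lower numbered 2 with library totals and 2 to 4 without single libraries, and those called higher 0 to 3. Replicate numbers did not pair the samples (correlation of deviations -0.0216), and the block gave 3544 genes higher and 3511 lower, beside 2854 and 2906 by DESeq2. Leaving out 1 library leaves a group with 1 sample, which is assumed to vary like the other group. Without single libraries the median of the glycolysis members ranged from -0.25 to -0.14 and the difference in the LDHA share from -0.808 (without MET+ replicate 1; -0.570 without MET-KO replicate 2) to 2.97 percentage points. The signs that changed were those of HK2 (-0.003 with no filter; -0.082 to 0.083 without single libraries), GPI (0.088 with totals, 0.026 with at least 10 counts in every library; -0.050 to 0.026), LDHA (0.025 with totals; -0.186 to 0.036), PDK1 (-0.17 to 0.21), CA12 (-0.002 to 0.23), ANGPTL4 (-0.11 to 0.22), PGK1 (0.076 and 0.016; -0.11 to 0.06) and SLC16A1 (0.087 and 0.025; -0.055 to 0.022). Subtraction of the chromosome median and of the 5 Mb median gave values with no test. PFKL and HIF1A, both called in the main fit, changed sign, PFKL to -0.003 and -0.13 and HIF1A to 0.20 and 0.27. LDHB, which was not called, changed to 0.18 and 0.006. The cause of these changes was not tested. Depth limited CA9, at 0 counts, to an upper limit of 0.276 to 0.362 CPM from counting error alone.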

Other observations

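ALDOA and EGLN2, genes used by most cells, were listed at 0 counts in all 4 libraries. Both share the end of their transcripts with another annotated gene on the same strand, ALDOA for 75.2% and EGLN2 for 97% of the last 500 exon bases. Of 1097 protein-coding genes that share at least 50% of these bases with another gene on the same strand, 764 were at 0 in all libraries (69.6%). Among the other 18819 protein-coding genes 4613 were at 0 (24.5%). The 0 of ALDOA and EGLN2 is therefore given as listed and not as a lack of expression, and the counting rule behind it was not tested. CA9 shares 0% of these bases, but its exons overlap the antisense gene ARHGEF39, which had 372 counts. The strand setting of the counting is not given, so the 0 of CA9 is also given as listed.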
